A study of Rattus norvegicus with 6 samples.

Results

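The miR-26 family (miR-26a and miR-26b) and the miR-103 family (miR-103 and miR-107) are intronic miRNAs, carried in genes of the Ctdsp phosphatases and of the pantothenate kinases. The 4 miRNAs were taken by name from the array, without their passenger (star) arms, and are 4 of the 677 miRNAs it carries. RNA came from rat tendon-derived stem cells (rTDSCs) of patellar tendons of male 8-week-old Sprague Dawley rats, used at passage 3. The loading group was stretched along 1 axis on collagen I-coated silicone plates, to 10% elongation at a frequency of 0.5 Hz, for 8 h on each of 7 days, and the non-loading group was kept static for the same 7 days. Each group had 3 samples, measured on 6 one-colour arrays of 1 Agilent slide. The cells were mixed from all colonies of a primary culture, so each sample is a mixture of clones. Neither the labels nor the methods say whether the 3 samples of a group came from separate rats or cultures, so p-values measure the spread between these samples, which may be technical.

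A miRNA pairs with its target mRNAs mainly through its seed, bases 2 to 8 from the 5′ end, and lowers their translation and stability. miR-26 is known to act in a loop with its host genes, since the Ctdsp phosphatases are among its targets, and has been linked to the osteogenic differentiation of mesenchymal stem cells through targets such as Gsk3b and Smad1. miR-103 and miR-107 lie in genes of coenzyme A synthesis, restrain Dicer and caveolin-1, and are known for roles in insulin signalling and in the adipogenic differentiation of precursor cells. The comparison asks which miRNAs of these stem cells differ in signal after a regimen of repeated stretch.

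The mature sequences, read from the RefSeq table of the GRCr8 build, show why the 4 miRNAs form 2 families. All 4 names were matched. Capitals mark the seed.
rno-miR-26a: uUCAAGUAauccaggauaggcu
rno-miR-26b: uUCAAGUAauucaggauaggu
rno-miR-103: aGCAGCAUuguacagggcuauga
rno-miR-107: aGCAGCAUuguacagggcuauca

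miR-26a is the 5′ arm of its hairpin and lies at chr8:127633063-127633084 on the plus strand, within the span of Ctdspl. miR-26b, also a 5′ arm, lies at chr9:83425723-83425743 on the plus strand, within Ctdsp1. miR-103 is a 3′ arm, and its sequence is held by 2 hairpins, Mir103a2 within Pank2 (mature copy at chr3:138963278-138963300, plus strand) and Mir103a1 within Pank3. The array cannot tell these copies apart. miR-107, a 3′ arm, lies at chr1:241750431-241750453 on the minus strand, within Pank1. The gene table gives gene spans and no exons, so the intronic position is background knowledge.

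Within a family the sequences are close to identical. miR-26a and miR-26b shared 19 of 21 compared bases, with the substitutions C11U and C21U, counted from the 5′ end with the base of miR-26a first. miR-103 and miR-107 shared 22 of 23 bases and differed by G22C, with the base of miR-103 first. The seed UCAAGUA was held by 2 names of the table, and the seed GCAGCAU by 2, in both cases the family itself. How far a probe of one family member also binds the other was not tested.

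All 4 miRNAs were well measured. Each had 2 probes with 10 spots per probe and array, and 120 of 120 spots were well above background for each miRNA. Signals are given as the log2 of the summed probe intensity relative to the 75th percentile of each array, taken over probes that every array detected, so that 0 is that percentile. A level of one miRNA cannot be set against that of another, because probes differ in brightness. The number of arrays limits the precision.

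The log2 signal of miR-26a was 0.89, 1.09 and 1.09 in non-loading replicates 1, 2 and 3, and 1.03, 0.59 and 0.94 in loading replicates 1, 2 and 3. Loading replicate 2 was the lowest array, and the other loading arrays lay within the non-loading range, so the groups overlapped. The mean was 1.03 ± 0.11 (SD, n = 3) without loading and 0.85 ± 0.23 (SD, n = 3) with it. The log2 change of -0.17 (standard error 0.14, 95% interval -0.51 to 0.16) had an adjusted p of 0.724 in limma with Benjamini-Hochberg adjustment (exact permutation test, two-sided p = 0.3). Without loading replicate 2 the change was -0.04.

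The log2 signal of miR-26b was -0.58, -0.41 and -0.50 in the non-loading replicates and -0.57, -0.71 and -0.54 in the loading replicates. The groups overlapped here too, and loading replicate 2 was again the lowest array. The mean was -0.50 ± 0.09 (SD, n = 3) without loading and -0.61 ± 0.09 (SD, n = 3) with it. The log2 change was -0.11 (standard error 0.09, 95% interval -0.33 to 0.11, limma adjusted p = 0.724, exact permutation test, two-sided p = 0.3). Without loading replicate 2 it was -0.05.

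The log2 signal of miR-103 was 0.47, 0.54 and 0.50 in the non-loading replicates and 0.56, 0.62 and 0.59 under loading. The groups did not overlap, although the nearest arrays, non-loading replicate 2 and loading replicate 1, were close. The mean was 0.50 ± 0.04 (SD, n = 3) without and 0.59 ± 0.03 (SD, n = 3) with loading, and the log2 change was 0.09 (standard error 0.07, 95% interval -0.08 to 0.26). This did not pass the limma test (adjusted p = 0.724), and the exact permutation test gave a two-sided p of 0.1, the smallest that 3 arrays against 3 allow.

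The log2 signal of miR-107 was -0.05, 0.0008 and -0.06 in the non-loading replicates and 0.09, 0.04 and 0.03 under loading. Again every loading array lay above every non-loading array. The mean was -0.03 ± 0.03 (SD, n = 3) without and 0.05 ± 0.03 (SD, n = 3) with loading, and the log2 change was 0.09 (standard error 0.07, 95% interval -0.08 to 0.26, limma adjusted p = 0.724, exact permutation test, two-sided p = 0.1). As linear ratios of loading to non-loading signal, the changes were 0.889 for miR-26a, 0.928 for miR-26b, 1.06 for miR-103 and 1.06 for miR-107.

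**Figure D1:**
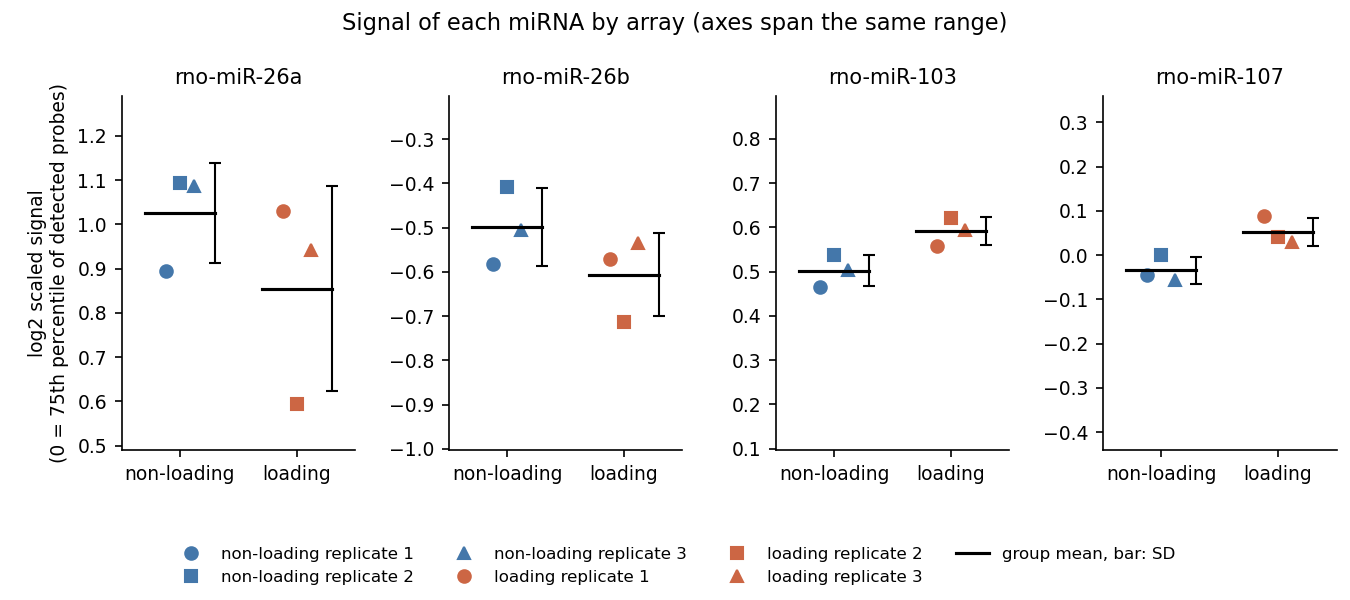
Log2 scaled signal of miR-26a, miR-26b, miR-103 and miR-107 on each of the 6 arrays, by group, with the group mean and SD (n = 3). Loading replicate 2 is lowest for both miR-26 members, while for miR-103 and miR-107 the 3 loading arrays lie above the 3 non-loading arrays.

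None of the 4 miRNAs passed an adjusted p of 0.05, where 0% of the 148 tested miRNAs did in limma and 2 miRNAs, neither of them a family member, did by the methods' test (the Newman–Keuls test). None had an unadjusted p under 0.05 in limma, against 9.46% of all tested (8.78% higher and 0.676% lower under loading), and their p ranked from 49 to 52. The methods' test, which takes each miRNA's own spread alone, gave miR-103 and miR-107 an unadjusted p of 0.0316 and 0.0262, among 15 of the 148 under 0.05, and an adjusted p of 0.390 and 0.353. In limma without the filter on dim miRNAs these 2 had an unadjusted p of 0.0303 and 0.0250, among 19 of 677 under 0.05. The adjusted p was 0.438 for both. Their changes were the same there, while the standard errors fell from 0.07 for each to 0.027 and 0.025. That fit shares its estimate of spread with the 487 miRNAs detected on no array, so it is not independent support. The groups did not overlap for 2 of the 4, miR-103 and miR-107, both higher under loading. Over all tested miRNAs the groups did not overlap for 15.5%, with 12.8% higher and 2.7% lower under loading. The median change of all tested miRNAs was 0.06, so the changes of miR-103 and miR-107 exceeded that median by 0.02, and those of miR-26a and miR-26b lay below it, at differences of -0.23 and -0.17. With normexp background correction, which put that median at -0.45, all 4 lay above it. The side of the median on which miR-103 and miR-107 lay was not stable. miR-103 minus the median was -0.017 without loading replicate 2, -0.010 without non-loading replicate 1 and -0.014 with the slide row as a block, and miR-107 minus the median was -0.013 without loading replicate 1, -0.015 with quantile normalization and -0.0011 with outlier spots kept. Without non-loading replicate 3 the median was 0.0016, and miR-103 and miR-107 exceeded it by 0.088 and 0.074. When any 1 array was left out, miR-26a minus the median ran from -0.34 to -0.13, and miR-26b minus the median from -0.23 to -0.11. For miR-26a the difference was -0.06 with the slide row as a block. For miR-26b it was -0.095 with outlying backgrounds replaced before normexp.

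The directions of miR-103 and miR-107 depended on the scaling. With the 75th percentile taken over all probes the changes were -0.07 for both (standard error 0.34 for each). That percentile was only 1.43 to 2.88 intensity units, near the standard deviation of negative-control spots (1.80 to 2.28). This scaling therefore rests on signals at the level of the background. The scanner software's total signal per miRNA gave -0.01 and -0.02, and quantile normalization gave 0.02 and 0. Without scaling the changes were 0.037 and 0.035, of the reported sign but smaller. For both miRNAs the groups overlapped under each of these scalings. miR-26a and miR-26b were negative under every scaling tried. Their changes were -0.32 and -0.26 with the percentile of all probes (standard error 0.34 for each) and -0.27 and -0.21 with the total signal. They were -0.26 and -0.23 with quantile normalization and -0.22 and -0.16 without scaling. Whether the groups overlapped also depended on the background correction. With normexp they overlapped for miR-103 and miR-107, and with outlying backgrounds replaced before normexp they did not overlap for miR-26b. The changes of miR-26a and miR-26b were -0.04 and -0.24 with normexp, and -0.13 and -0.05 with outlying backgrounds replaced.

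The position of an array on the slide was not balanced between the groups. The non-loading arrays all lay in row 1, together with loading replicate 1, and the other 2 loading arrays in row 2. Within row 1 loading minus non-loading was 0.0050 for miR-26a, -0.07 for miR-26b, 0.06 for miR-103 and 0.12 for miR-107, each resting on 1 loading array. Columns 1 and 2 held 1 array of each group, with the non-loading array in row 1 and the loading array in row 2. The differences there are therefore also differences between rows. They were -0.30 and -0.15 for miR-26a, -0.13 and -0.13 for miR-26b, 0.16 and 0.06 for miR-103 and 0.09 and 0.03 for miR-107. Columns 3 and 4 held 1 array each, so a column block rests on columns 1 and 2 alone. With the slide column as a block in limma the changes were -0.23, -0.13, 0.11 and 0.06, in the same order (adjusted p from 0.430 to 0.709). With the slide row as a block they equalled the row 1 differences (limma adjusted p from 0.791 to 0.986). The part of slide position in these differences was not tested further.

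The probes of each miRNA gave changes of 1 sign. For miR-26a the brighter probe changed by -0.18 (standard error 0.16) and the dimmer by -0.15 (standard error 0.08). The brighter probe was at 142% ± 14.8 (SD, n = 3) of the 75th percentile in non-loading cells and at 127% ± 23.7 (SD, n = 3) under loading, with overlap. The dimmer probe was at 61.0%, 63.8% and 60.8% on the non-loading arrays and at 58.8%, 50.9% and 57.5% on the loading arrays, with no overlap. For miR-26b the brighter probe changed by -0.08 (standard error 0.09), with overlap, and the dimmer by -0.14 (standard error 0.09), with no overlap. For miR-103 the changes were 0.09 and 0.07, with overlap on the dimmer probe only, and for miR-107 they were 0.08 and 0.11, without overlap on either probe. In a limma fit over the 239 probes of tested miRNAs, none of these 8 probes passed, with adjusted p from 0.552 to 0.736. How often the groups did not overlap over all 239 probes was not counted, so the overlaps by probe are descriptive only.

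The arrays of a group differed little in the miR-103 family. The median coefficient of variation between spots of 1 probe on 1 array was 8.30% for miR-103 and 8.39% for miR-107, while the summed signal varied between the arrays of a group by 2.12% to 2.46%. For miR-26a the spots varied by 10.5% (median) and the arrays by 7.65% without loading and 15.3% under loading. For miR-26b these values were 5.73%, 6.09% and 6.39%. The array signal averages many spots, which lowers its variation, so the values for spots and for arrays cannot be compared in size. Outlier-flagged spots, which were left out, numbered 6 for miR-26a, 10 for miR-26b, 2 for miR-103 and 3 for miR-107, of 120 each.

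**Figure D2:**
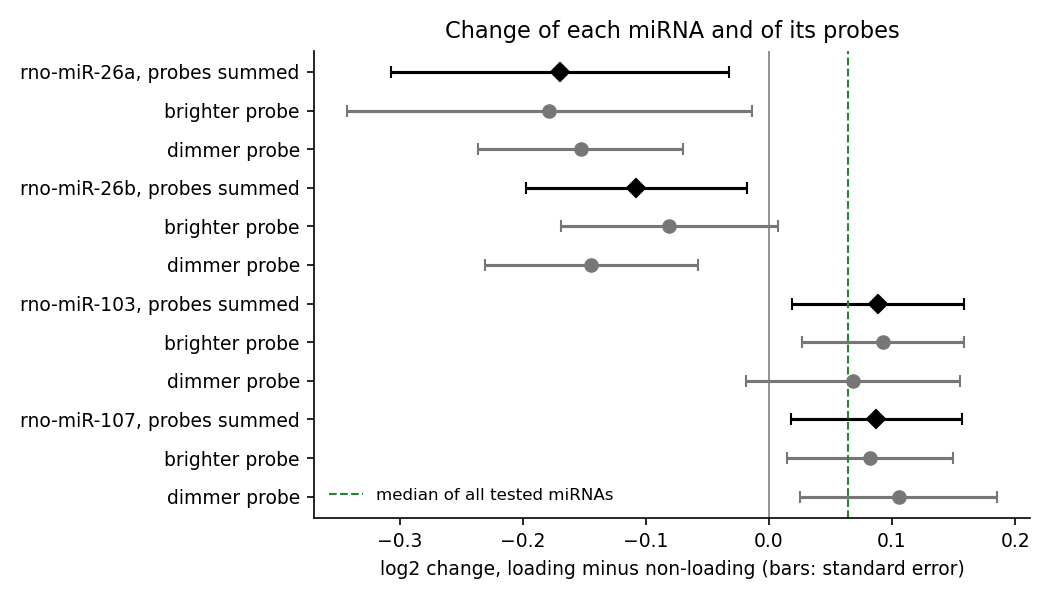
Log2 change (loading minus non-loading) with its standard error for each miRNA with its probes summed (black) and for its brighter and dimmer probe (grey). The dashed line is the median of all tested miRNAs, 0.06; both probes of miR-26a and miR-26b lie below 0 and both probes of miR-103 and miR-107 above it.

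Differences taken within an array are free of the scale factor of that array, and their change between groups shows whether 2 miRNAs moved unequally. The log2 difference between miR-26a and miR-26b was 1.52 ± 0.06 (SD, n = 3) without loading and 1.46 ± 0.15 (SD, n = 3) with it, a change of -0.06 (exact permutation test, two-sided p = 0.6). That between miR-103 and miR-107 was 0.54 ± 0.02 (SD, n = 3) without and 0.54 ± 0.06 (SD, n = 3) with loading, which differ by 0.0017 (exact permutation test, two-sided p = 0.9). In both families the groups overlapped.

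The families were then set against each other. The mean log2 signal of miR-26a and miR-26b minus that of miR-103 and miR-107 was -0.05, 0.07 and 0.07 on the non-loading arrays and -0.09, -0.39 and -0.11 on the loading arrays. Every loading array lay below every non-loading array, with loading replicate 2 farthest down and loading replicate 1 close to non-loading replicate 1. The mean was 0.03 ± 0.07 (SD, n = 3) without loading and -0.20 ± 0.17 (SD, n = 3) with it, so the change was -0.23, or 0.854 as a ratio. The exact permutation test gave a two-sided p of 0.1, the smallest possible here, and 0.233 after Benjamini-Hochberg adjustment over the 7 within-array differences tested. Leaving out loading replicate 2 gave a change of -0.13. The groups overlapped with quantile normalization, where the change was -0.26, and with the brightest probe of each miRNA, where it was -0.22. With normexp the change was -0.077, smaller than that of miR-26a against miR-26b under the same setting (0.20), and with outlying backgrounds replaced before normexp it was -0.16.

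Taken pair by pair, miR-26b against miR-103 changed by -0.20 and against miR-107 by -0.19, both without overlap (exact permutation test, two-sided p = 0.1 for each). miR-26a against miR-103 and against miR-107 changed by -0.26 for both, with overlap (exact permutation test, two-sided p = 0.2 for each).

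**Figure D3:**
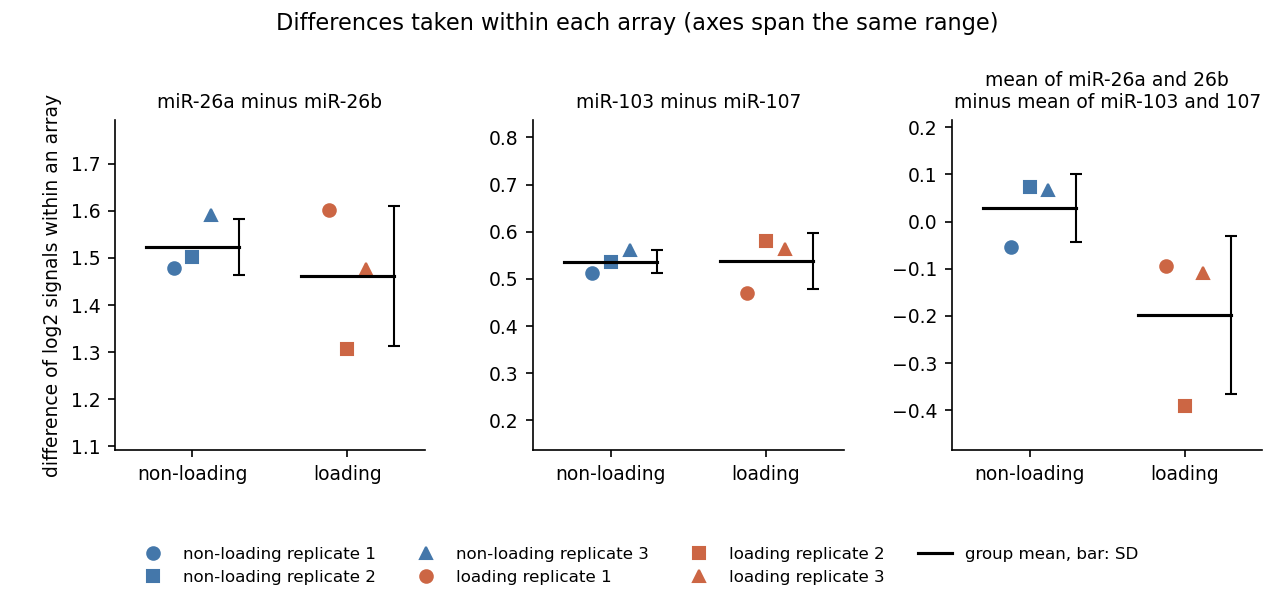
Differences of log2 signals within each array for miR-26a minus miR-26b, miR-103 minus miR-107, and the miR-26 family mean minus the miR-103 family mean, with group means and SD (n = 3). The groups overlap in the first and second panels and are apart in the third, where the change was -0.23.

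Correlations over the 6 arrays did not pass after adjustment for any pair of members. Pearson's r between miR-26a and miR-26b was 0.90 (permutation test over pairings, p = 0.0111, adjusted over the 6 pairs of members 0.0667) and Spearman's rho 0.94 (permutation p = 0.0167, adjusted 0.1). Without loading replicate 2 and non-loading replicate 2, the arrays farthest from the median of miR-26a, r was 0.65. On deviations from the group means r was 0.87. Between miR-103 and miR-107 r was 0.74 (permutation p = 0.0944, adjusted 0.283) and rho 0.77 (permutation p = 0.103, adjusted 0.308). It was 0.69 without the 2 arrays farthest from the median of miR-103, and on deviations from the group means it was -0.0027, so the relation rested on the difference between the groups. The 4 pairs across families had r from -0.54 to -0.24 and none passed (permutation p from 0.290 to 0.665). The negative sign did not hold within groups, since on deviations from the group means 3 of these 4 pairs were positive (0.17 to 0.46) and miR-26a with miR-103 was at -0.25. Without the 2 arrays farthest from the median of the miR-26 member 3 of the 4 were positive (0.06 to 0.21), and miR-26b with miR-107 was at -0.34.

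The miRNAs most like miR-26a over the 6 arrays were miR-140* (Pearson r = 0.91), miR-26b (0.90) and miR-152 (0.88), and those most like miR-26b were miR-26a (0.90), miR-101b (0.89) and miR-411* (0.83). For miR-103 they were miR-27a (0.96), miR-125a-5p (0.94) and miR-322 (0.89), and for miR-107 they were miR-222 (0.97), miR-322 (0.95) and miR-221 (0.93). All miRNAs of an array shared that array's scale factor, and the median r with all tested miRNAs was -0.22, -0.14, 0.18 and 0.28 for miR-26a, miR-26b, miR-103 and miR-107.

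The first bases of miR-103 and miR-107 hold AGCAGC, which also opens the cell-cycle miRNAs of the miR-15 and miR-107 group. Of the 693 mature names in the table, 8 (1.15%) hold AGCAGC within their first 9 bases, and these are miR-103, miR-107 and the following 6. Capitals mark AGCAGC, which begins at base 2 in these miRNAs and at base 1 in miR-103 and miR-107, so that the seeds differ.
rno-miR-15b: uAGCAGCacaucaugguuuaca
rno-miR-16: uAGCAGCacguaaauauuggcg
rno-miR-195: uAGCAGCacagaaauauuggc
rno-miR-322: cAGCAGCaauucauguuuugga
rno-miR-497: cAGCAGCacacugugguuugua
rno-miR-503: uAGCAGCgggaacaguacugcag

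These relatives had no common direction. miR-15b, miR-16, miR-195, miR-322 and miR-497 were tested, and 0 of the 5 passed an adjusted p of 0.05 in limma, while 1, miR-322, had an unadjusted p under 0.05, against 9.46% of all tested. The groups did not overlap for 2 of the 5, miR-322 and miR-16, against 15.5% of all tested. The log2 signal of miR-322, known to accompany cell-cycle exit and muscle differentiation, was -1.44, -1.29 and -1.40 in non-loading and -1.15, -1.19 and -1.18 in loading replicates, without overlap. Its change was 0.20 (standard error 0.08, limma adjusted p = 0.486). miR-16, which restrains cyclins, was at 3.11, 3.01 and 3.03 without loading and at 2.89, 3.00 and 3.00 with it, a change of -0.08 (standard error 0.08, limma adjusted p = 0.724), without overlap by a narrow margin. miR-15b changed by 0.08, miR-195 by -0.10 and miR-497 by -0.11, each with overlap. The median of the 5 was -0.08, against 0.06 for all tested. miR-503 was detected on 3 of 6 arrays and was not tested.

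**Figure D4:**
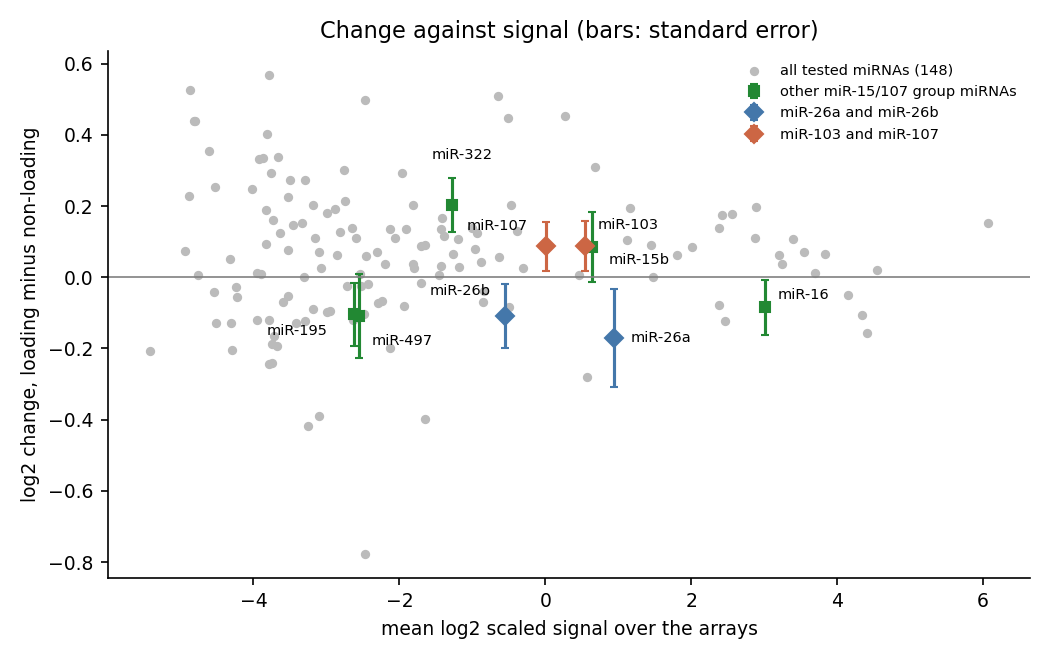
Log2 change (loading minus non-loading) against the mean log2 scaled signal for the 148 tested miRNAs, with standard errors for the miR-26 family (blue), the miR-103 family (orange) and the other tested miRNAs of the miR-15 and miR-107 group (green). miR-26a and miR-26b lie below 0, miR-103 and miR-107 just above it, and the green points on both sides.

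The passenger arms of the same hairpins gave no signal to set beside the guide arms. miR-26a*, miR-26b*, miR-103-1*, miR-103-2* and miR-107* were on the array, and 5 of the 5 were detected on none of the 6 arrays. The same held for 487 of all 677 miRNAs on the array.

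Of 22 other miRNAs in introns of protein-coding genes, 17 were tested and 0 passed an adjusted p of 0.05 in limma. Only miR-27b, which represses adipogenic regulators, had an unadjusted p under 0.05, against 9.46% of all tested. Its change was 0.31 (standard error 0.12, limma adjusted p = 0.486), and its groups overlapped. The median change was 0.09. The extremes among them were miR-7a at 0.44 (standard error 0.30) and miR-128 at -0.07 (standard error 0.09). miR-7a was detected on 5 arrays and stood at the floor, -5.74, in non-loading replicate 3. Its other values were -4.70 and -4.65 without loading and -4.66, -4.49 and -4.61 with it. Its change and its place as an extreme therefore rest on 1 floored array.

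Of 13 other miRNAs known for roles in osteogenic or adipogenic fate, 10 were tested, 0 passed an adjusted p of 0.05 in limma, and 3 had an unadjusted p under 0.05, miR-210, miR-27b and miR-31. The changes were 0.45 for miR-210, a hypoxia-induced miRNA (standard error 0.15), 0.31 for miR-27b and 0.20 for miR-31 (standard error 0.07), each with a limma adjusted p of 0.486. The median of the 10 was 0.15, and the lowest change was -0.05, for miR-214 (standard error 0.10). Unadjusted p values under 0.05 with a higher signal were found for 8.78% of all tested miRNAs.

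The arrays carried the signals of mesenchymal cells. Of 8 miRNAs typical of fibroblast-like cells, among them miR-21, miR-199a-3p and miR-214, 7 were detected on all 6 arrays, and the exception was miR-145, detected on 3. The 6 miRNAs of muscle, 6 of epithelium, 2 of neurons and 1 of liver were detected on no array. Of all 677 miRNAs, 133 were detected on all 6 arrays and 487 on none. Of 6 miRNAs of blood cells 5 were detected on no array, and miR-223 was detected on 5 arrays at log2 signals of -4.01 without and -3.61 with loading (limma adjusted p = 0.709). The endothelial miR-126 was detected on all 6, at -4.66 and -4.40 (limma adjusted p = 0.724). The summed scaled signal of the blood cell list was 15.9%, 17.4% and 13.8% of the 75th percentile in non-loading replicates 1, 2 and 3 and 18.1%, 16.6% and 18.0% in the loading replicates, with undetected miRNAs at the floor. Its part in the results was not tested. In bulk RNA, fewer cells of a type and less RNA per cell cannot be told apart.

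**Figure D5:**
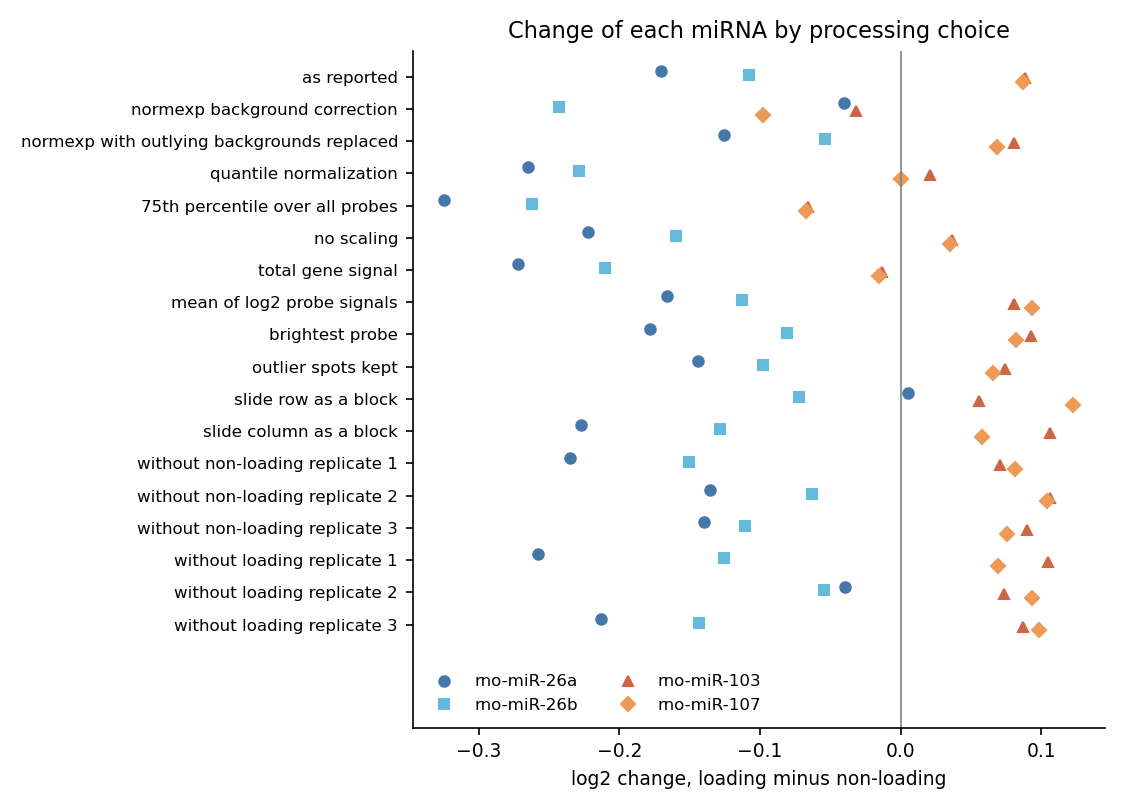
Log2 change (loading minus non-loading) of miR-26a, miR-26b, miR-103 and miR-107 as reported and under other background corrections, scalings, probe summaries, blocks and with 1 array left out. miR-26b stays below 0 in every row shown, miR-26a in all but the slide row block (0.0050), and miR-103 and miR-107 are below 0 under 3 settings: normexp, the percentile of all probes, and the software's total signal.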

How the data were processed

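The deposited files are array scans read by the authors with Agilent Feature Extraction (10.7.3.1 per the file headers; 10.7 in the submitters' processing notes), and give a deposited background-subtracted intensity per spot and outlier, detection and saturation flags, coded 0 or 1. Their values are not scaled between arrays, and the deposited matrix holds the same intensities (largest difference 0).

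Control and outlier-flagged spots were left out and spots were averaged per probe. Probe signals were divided by the 75th percentile, per array, of the 173 probes that every array detected (at least 50% of spots well above background), which was 262.6 to 362.2 intensity units against a standard deviation of 1.80 to 2.28 for negative-control spots. Saturated spots numbered 0. Probes of a miRNA were summed, floored at the 1st percentile of detected values (1.87% of the scaling percentile) and log2 transformed.

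A miRNA was tested where every array of either group detected it, which left 148, with limma 3.58.1 under R 4.3.3 (lmFit, eBayes; Benjamini-Hochberg, threshold 0.05). The fit was tested on simulated data. Single values were compared by exact permutation. The methods name a Student–Newman–Keuls test, run as an alternative. All arrays lay on 1 slide, so slide rows and columns served as blocks instead.

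Named were the 4 miRNAs, their passenger arms, the miR-15 and miR-107 group, other intronic miRNAs, other fate-related miRNAs, markers of cell types, and the 3 miRNAs closest in pattern to each member. From the lists, those with the highest and lowest change or an unadjusted p under 0.05 are given. The members and lists were chosen with earlier results of these data known. Arms were matched to RefSeq names by hand, for 10 of 10 printed sequences. The files' header names another build, so positions come from the RefSeq table alone.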

Additional observations from a re-analysis of the deposited data

How the results depend on the processing

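Over 17 alternatives, and when any 1 array was left out, none of the 4 miRNAs passed an adjusted p of 0.05 in limma or in the methods' test, where their adjusted p ran from 0.353 to 1. Their unadjusted p was above 0.05 except for miR-103 and miR-107 in the following settings. Under the methods' test it was 0.0316 and 0.0262, and in limma without the filter on dim miRNAs 0.0303 and 0.0250, against 0.252 and 0.257 as reported. That unfiltered fit includes the miRNAs detected on no array. miR-26b was negative throughout, from -0.26 to -0.05. miR-26a was positive, at 0.0050, only with the slide row as a block, by construction the difference within row 1. With normexp background correction miR-103 was at -0.032 and miR-107 at -0.10, where the median of all tested miRNAs was -0.45 and the 4 miRNAs lay above it by 0.21 to 0.42. With the scaling percentile taken from all probes both were at -0.07 (-0.066 and -0.067, standard error 0.34 for each, median of all -0.09). With the total gene signal they were at -0.013 and -0.015. With quantile normalization miR-107 was at 0. With an array left out, miR-26a ran from -0.26 to -0.04, miR-26b from -0.15 to -0.05, miR-103 from 0.07 to 0.11 and miR-107 from 0.07 to 0.10.

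The change between the families was negative in 8 of 8 alternatives (-0.26 to -0.08, the groups apart in 6) and from -0.28 to -0.13 with an array left out. The deposited matrix and the total gene signal, both among the 8 and the 6, repeated the reported -0.23. The matrix holds the same intensities, and a scale factor per array cancels within an array, so these add no separate support. The change of miR-26a against miR-26b was 0.20 with normexp, and -0.13 to 0.015 with an array left out, positive without loading replicate 2. That of miR-103 against miR-107 was -0.01 with the mean of log2 probe signals and -0.019 to 0.036 with an array left out, negative without non-loading replicate 1, loading replicate 2 or loading replicate 3. For these reversed values the cause was not tested.

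An adjusted p of 0.05 was passed by 0 miRNAs, and by 2 with the brightest probe, log2 probe signals averaged, outlier spots kept, only miRNAs detected on all 6 arrays, eBayes with trend and robust, and the methods' test. Leaving out any array gave 0. The number past an unadjusted p of 0.05 was 14 (13 higher, 1 lower). It was 0 with normexp, 8 with outlying backgrounds replaced before normexp, 1 with the percentile of all probes (lower), 4 unscaled (3 higher, 1 lower), 8 with the total gene signal (3 higher, 5 lower) and 7 with the slide row as a block (4 higher, 3 lower), and quantile normalization gave 8 higher and 9 lower, the brightest probe 10 higher and 4 lower. Leaving out an array gave 6 to 17, with 7 without loading replicate 1 and 6 without loading replicate 3 (4 higher, 2 lower), and without non-loading replicate 3 the split was 7 higher and 6 lower. What caused these shifts was not tested.

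Samples are not paired by their replicate numbers, since deviations of same-numbered arrays correlated at -0.69, -0.47 and 0.11. The replicate block left 6 miRNAs past an unadjusted p of 0.05 (4 higher, 2 lower) and 0 past an adjusted one. The 4 miRNAs had a limma adjusted p of 0.850 each. Each block holds 1 array of each group, so their changes were bound to stay the same.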
